A study of Mus musculus with 9 samples.

Results

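Eph receptors and their ligands, the ephrins, were followed in the normal colonic mucosa of mice given a colon carcinogen with or without butyrate in the drinking water. The genes were 5 receptors (Ephb2, Ephb3, Ephb4, Ephb6 and Epha2) and 3 ephrins (Efnb1, Efnb2 and Efna1), taken by gene name with every probe whose RefSeq accession maps to the symbol. All 8 are among the 18353 named genes of the array and were measured by 10 probes, 2 each for Ephb2 and Efnb2 and 1 for each of the others. All 10 probes passed the filter on dim signals, and no spot of theirs was marked as an outlier.

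Mice were of the ICR stock, which is outbred, and every group received subcutaneous 1,2-dimethylhydrazine (DMH), a carcinogen that gives rodents colon tumors, at 20 mg/kg once a week for 20 weeks. Butyrate is a short-chain fatty acid that colonocytes burn as fuel and that inhibits histone deacetylases. The 3 groups, with 3 arrays each, were DMH with 1.5% butyrate in the drinking water from mice with tumors, the same treatment from mice without tumors, and DMH with normal water. No group without DMH was used here, and age and sex are not given in the sources used here. The tumor status is taken from titles, descriptions and source names. The tumor status characteristic contradicts them for each of the 6 butyrate samples. If that field is right, the 2 butyrate groups change places, each one's values against DMH belong to the other, and the sign of every difference between them turns. Since the labels do not say that samples came from separate animals, the p-values speak only to the scatter of these samples, which may be technical. Precision is limited by having 3 arrays a group.

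Eph receptors are receptor tyrosine kinases whose ephrin ligands are tethered to the surface of neighbouring cells, so that signals pass at cell contacts, in both directions. In the intestine, Wnt signalling keeps EphB2 and EphB3 high in the cells of the crypt base, while ephrin-B1 and ephrin-B2 rise towards the surface. Repulsion between the 2 domains keeps proliferative and differentiated cells apart, and mice that lack both receptors mix these cells. EphB2 is also known to be lost as human colorectal adenomas progress to carcinoma.

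Signals are given as a level, the log2 of the background-corrected intensity minus the 75th percentile of the same array, so that 0 marks the 75th percentile. Levels of different probes are not compared, because probes differ in brightness. The 75th percentile itself ran from 188 to 880 intensity units, and the share of spots well above background from 57.8% to 72.5%. Array 1 with tumors stood apart. It had the lowest 75th percentile, its lymphocyte genes summed to 61.3 times the 75th percentile against 5.85 to 13.9 on the other 8 arrays, and it was the lowest of the 9 arrays for 5 of the 8 genes (Ephb2, Ephb3, Ephb4, Efnb2 and Efna1). It shared slide 1 with the 3 arrays without tumors, arrays 2 and 3 with tumors lay on slide 2, and slides 3 and 4, scanned on a second day, held the DMH arrays. Hence slide, scan day and butyrate cannot be told apart in any comparison with DMH. DMH arrays 2 and 3, both on slide 4, lay close together, with an SD of their difference of 0.118 over 197 probes of at least 8 spots. For DMH array 1 that SD was 0.388 against array 2 and 0.387 against array 3. The scatter of spots gives 0.0745 for arrays 2 and 3. As it holds only the scatter within an array, a larger SD cannot show that these were separate samples. They were counted as separate, and fits with the 2 averaged are given below.

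Each comparison was tested with limma's moderated test, and a gene was called at an adjusted p under 0.05 over all 21964 features measured. For all 6 butyrate arrays against the 3 DMH arrays, which is the comparison that the design text names, 1 of the 8 genes was called, beside 9.2% of all features (5.85% higher and 3.35% lower). That gene was Ephb2, which fell. Between butyrate mice with and without tumors 1 of 8 was called, Efnb2, which was lower with tumors, beside 13.5% of all features (6.99% higher and 6.56% lower). None was called for butyrate with tumors against DMH (5.7% of all features, with 2.26% lower; 2 of the 8 had an unadjusted p under 0.05) or for butyrate without tumors against DMH (30.5% of all features, with 16.6% higher and 13.8% lower; 3 of 8 had an unadjusted p under 0.05). With 8 genes, a count of 1 is near the shares of 9.2% and 13.5%, and 0 of 8 is no higher than the other shares.

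The stretches of 250 bases before the start of Ephb2 and Efnb2, the genes called, and of Ephb3, the close relative of Ephb2 in the crypt base, are shown because these genes are set against each other below. They are RefSeq sequences of build GRCm38.p6, printed 5′ to 3′ on the strand of the gene, and capitals mark GC boxes, the site of SP and KLF zinc finger factors, in either orientation (GGGCGG or its reverse complement).
Ephb2, chr4:136836013-136836262, minus strand: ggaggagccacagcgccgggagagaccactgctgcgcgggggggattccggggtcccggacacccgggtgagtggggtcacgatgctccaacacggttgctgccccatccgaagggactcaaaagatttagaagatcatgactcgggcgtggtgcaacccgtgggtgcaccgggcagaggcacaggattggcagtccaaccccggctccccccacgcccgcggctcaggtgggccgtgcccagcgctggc
Ephb3, chr16:21204545-21204794, plus strand: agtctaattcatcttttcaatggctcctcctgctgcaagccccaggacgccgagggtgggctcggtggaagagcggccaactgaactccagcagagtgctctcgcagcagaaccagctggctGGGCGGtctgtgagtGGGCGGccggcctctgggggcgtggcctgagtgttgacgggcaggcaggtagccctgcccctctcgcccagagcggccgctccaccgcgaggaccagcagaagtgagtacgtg
Efnb2, chr8:8661243-8661492, minus strand: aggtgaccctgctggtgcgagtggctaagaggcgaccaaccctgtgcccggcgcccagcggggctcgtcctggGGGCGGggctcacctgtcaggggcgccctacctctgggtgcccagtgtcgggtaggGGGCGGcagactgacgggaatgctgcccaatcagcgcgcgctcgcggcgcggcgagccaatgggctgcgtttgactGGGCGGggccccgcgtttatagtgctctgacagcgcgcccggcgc
No GC box lies in the Ephb2 stretch, 2 lie in that of Ephb3 and 3 in that of Efnb2. The 8 genes have 9 such stretches, as Efna1 has 2 starts. Of these 9, 7 hold a GC box, against 32.7% of the 32851 mouse promoters of the same length. The core of the site of TCF and LEF, the factors through which Wnt signalling acts on genes (CTTTGA or CTTTGT, both strands), lies in 1 of the 9, that of Epha2, against 27.6% of all promoters. In the Epha2 stretch the 2 kinds of motif share no bases. These matches describe the letters of the windows only.

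The receptor Ephb2 was lower on every butyrate array than on every DMH array. Its brighter probe had levels of -0.95, 0.48 and 0.32 on arrays 1 to 3 with tumors, -0.15, 0.33 and 0.69 without tumors, and 1.48, 1.34 and 1.34 in DMH mucosa. The 6 butyrate arrays lay below all DMH arrays, and array 1 with tumors was the lowest by a wide margin. In linear terms these were 0.516 to 1.40 times the 75th percentile with tumors, 0.902 to 1.62 times without tumors and 2.53 to 2.80 times in DMH mucosa. The log2 change of all butyrate arrays against DMH was -1.27 ± 0.33 (SE, 6 against 3 arrays, limma adjusted p = 0.0464), a fold of 0.415. Groups that do not overlap were found for 1 of the 8 genes, this one, and for 26.3% of all features, with 11.9% lower.

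**Figure D1:**
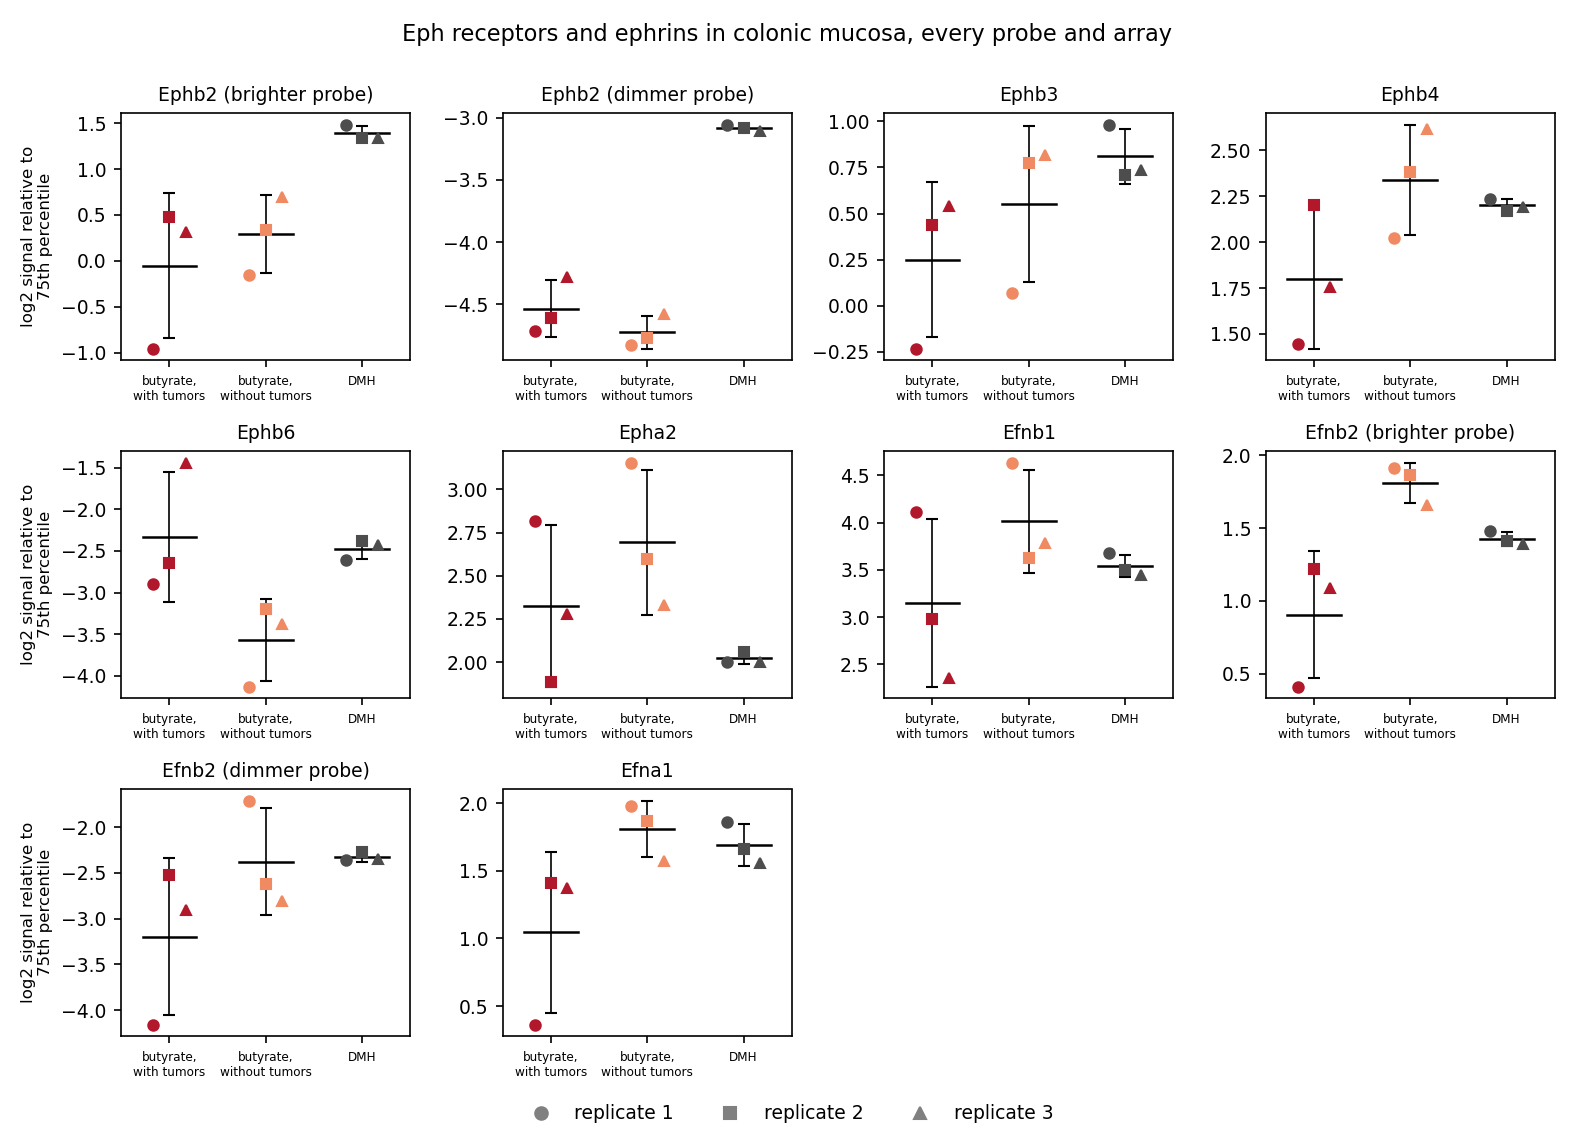
Levels of the 8 genes on each array (log2 signal relative to the 75th percentile of the array, a scale of its own per panel), with both probes of Ephb2 and Efnb2, for butyrate with tumors, butyrate without tumors and DMH from left to right. Points are arrays, bars the mean and SD of 3 arrays. Both probes of Ephb2 are lower on all 6 butyrate arrays, and array 1 with tumors is the lowest for 5 genes.

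The second probe of Ephb2, which was dim, also set the butyrate arrays below the DMH arrays, with less scatter. Its levels were -4.72, -4.61 and -4.28 with tumors, -4.83, -4.77 and -4.58 without tumors, and -3.05, -3.09 and -3.11 in DMH mucosa. It was well above background on 8 of the 9 arrays. The exception was array 1 with tumors, where the lowest level well above background was -4.30 and its value is only a bound. The fits below take that value as measured. The gap between the butyrate and the DMH arrays was wider than the range within either. In the fit over 28521 probes, where 9.05% of probes were called, its log2 change was -1.55 ± 0.16 for all butyrate arrays against DMH (adjusted p = 0.00522). The same probe was called in each butyrate group against DMH, with -1.45 ± 0.16 with tumors (adjusted p = 0.0155, beside 5.27% of probes) and -1.64 ± 0.16 without tumors (adjusted p = 0.0013, beside 30.2% of probes). The brighter probe missed the threshold in both, at -1.44 ± 0.38 with tumors (adjusted p = 0.0587) and -1.10 ± 0.38 without tumors (adjusted p = 0.0576). Both of these comparisons use the same DMH arrays. Between the butyrate groups neither probe was called, with -0.34 ± 0.38 (adjusted p = 0.541) on the brighter probe and 0.19 ± 0.16 (adjusted p = 0.435, beside 13.2% of probes) on the dim one.

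The call of Ephb2 on the brighter probe for all butyrate arrays depended on single arrays, though its direction did not. It was kept without array 1 with tumors (-1.05, adjusted p = 0.0324). Without the 4 arrays of slide 1 it was kept too (-0.99, adjusted p = 0.0273), but only arrays 2 and 3 with tumors then remained of the butyrate arrays. It was lost without array 1, 2 or 3 of the group without tumors (adjusted p = 0.0706, 0.08 and 0.056) and without DMH array 1, 2 or 3 (adjusted p = 0.145, 0.162 and 0.161). Slide as a random block (adjusted p = 0.189), no scaling (adjusted p = 0.238), normexp background correction with quantile scaling (adjusted p = 0.0571), no filter on dim probes (adjusted p = 0.0759) and averaging DMH arrays 2 and 3 (adjusted p = 0.161) also ended it.

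As a list, markers of the colonic epithelium, the tissue layer that carries EphB2 in the crypt, moved in the same direction. All 9 of these markers with values on every array, among them Epcam, Krt19 and Cdx2, were well above background on all 9 arrays. Their signals summed to 547 to 645 times the 75th percentile with tumors, 472 to 546 without tumors and 874 to 980 in DMH mucosa. Of 10 epithelial markers 5 were called lower for all butyrate arrays against DMH, beside 3.35% of all features, and 9 of the 10 changes were negative. Those called include Epcam, Krt19 and Cdx2, while Vil1 (0.0065, limma adjusted p = 0.984) and Cldn7 (-0.18, adjusted p = 0.674) were not called. Without tumors against DMH, Vil1 and Cldn7 had changes of 0.17 and 0.20, also not called. The median log2 change of the list for all butyrate arrays was -0.82, against 0.08 over all features. In samples of bulk RNA, fewer cells of a type and less RNA per cell cannot be told apart. Set against the mean of the epithelial markers on the same array, a scaling chosen after seeing the data, the change of Ephb2 was -0.50 (adjusted p = 0.138), in the same direction and no longer called. That scaling subtracts 1 value per array from every feature, and moved the median change of all features to 0.85. Smooth muscle markers, all 10 well above background on every array, summed to 456 to 912 with tumors, 402 to 891 without tumors and 232 to 397 in DMH mucosa. For all butyrate arrays against DMH all 10 changes were positive, with a median of 1.19 against 0.08 over all features. Of the 10, 8 had an unadjusted p under 0.05 (limma) and 1 was called higher, beside 5.85% of all features. The part of smooth muscle in the change of Ephb2 was not tested.

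**Figure D2:**
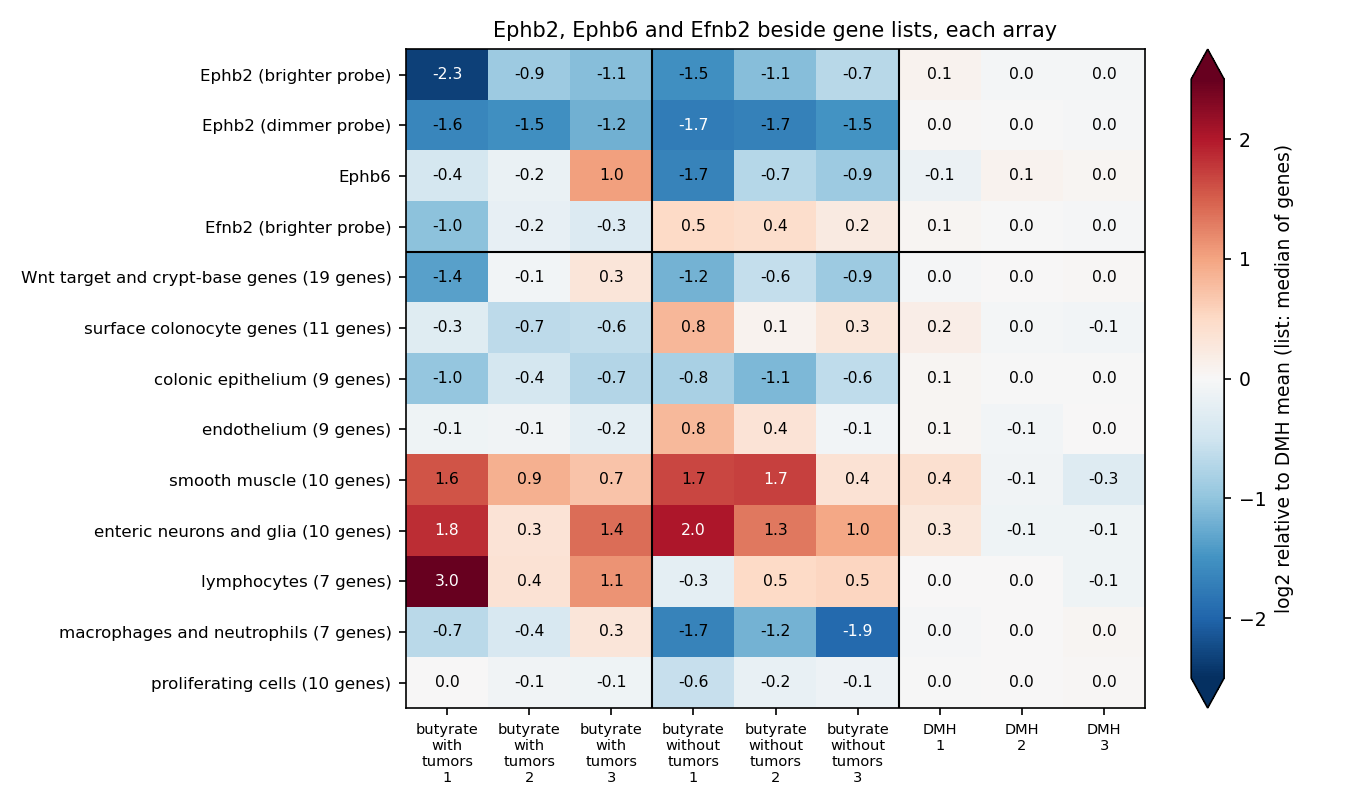
Ephb2 (both probes), Ephb6 and Efnb2, above the line, and the median of each gene list, below it, as log2 levels relative to the DMH mean, for each of the 9 arrays from butyrate with tumors to DMH. Colours stop at the ends of the bar, and the number in a cell is its value. Ephb2 is below 0 on all 6 butyrate arrays, as is the colonic epithelium list, while smooth muscle and enteric neurons and glia are above 0 there.

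Ephb3, the receptor that acts alongside EphB2 in the crypt base, was not called in any comparison. It had levels of -0.23, 0.44 and 0.54 with tumors, 0.07, 0.77 and 0.82 without tumors, and 0.98, 0.71 and 0.74 in DMH mucosa. The arrays with tumors lay below all DMH arrays, while 2 of the 3 arrays without tumors lay within the DMH range. The log2 change was -0.41 ± 0.25 for all butyrate arrays (adjusted p = 0.292), -0.56 ± 0.27 with tumors (adjusted p = 0.206) and -0.26 ± 0.27 without tumors (adjusted p = 0.493). Relative to the epithelial markers its change was 0.36 for all butyrate arrays, below the median of 0.85 over all features under the same scaling.

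EphB4, the receptor that ephrin-B2 prefers and a known protein of venous endothelium, also occurs in colon epithelium. Levels of Ephb4 (window before its start at chr5:137349859-137350108, plus strand) were 1.44, 2.20 and 1.75 with tumors, 2.02, 2.38 and 2.62 without tumors, and 2.24, 2.17 and 2.19 in DMH mucosa. One array with tumors reached the DMH range and the arrays without tumors lay on both sides of it. The change was -0.13 ± 0.25 for all butyrate arrays (adjusted p = 0.754), and between the butyrate groups it was -0.54 ± 0.23 (adjusted p = 0.138).

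Ephb6 encodes a receptor whose kinase domain is inactive and which signals through its partners. Its levels were -2.90, -2.65 and -1.44 with tumors, -4.13, -3.20 and -3.38 without tumors, and -2.61, -2.38 and -2.43 in DMH mucosa. All 3 arrays without tumors lay below every other array, and array 3 with tumors lay above all others. The window before its start lies at chr6:41605261-41605510 on the plus strand. The changes were -1.10 ± 0.39 without tumors against DMH (adjusted p = 0.0644) and 0.14 ± 0.39 with tumors against DMH (adjusted p = 0.83), which share the DMH arrays, and 1.24 ± 0.39 with against without tumors (adjusted p = 0.0683). None was called. Lymphocytes are known to express Ephb6, and their genes summed to 61.3, 8.08 and 13.9 times the 75th percentile on the arrays with tumors, 5.85 to 9.03 without tumors and 6.37 to 7.17 in DMH mucosa. Macrophage and neutrophil genes (7 measured, of which up to 1, 2 and 0 were not well above background on an array) summed to 8.63 to 18.2 with tumors, 5.36 to 7.33 without tumors and 11.7 to 12.0 in DMH mucosa. Of these 7, 5 were called lower without tumors against DMH, beside 13.8% of all features, with a median of -1.30 against 0.08 over all features. With against without tumors 4 of the 7 were called higher, beside 6.99% of all features, with a median of 1.25 against 0.01. The part of lymphocytes, macrophages and neutrophils in the Ephb6 values was not tested. Without array 1 with tumors, the change without tumors against DMH was called (-1.10, adjusted p = 0.0404), as was that with against without tumors (1.53, adjusted p = 0.0253). Without array 3 with tumors, the highest, the change with against without tumors was 0.79 and not called (adjusted p = 0.159), that with tumors against DMH was -0.30, of the opposite sign (adjusted p = 0.51), and that without tumors against DMH was called (-1.10, adjusted p = 0.0213).

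Epha2 encodes a receptor of A-type ephrins that is widespread in epithelia. It had levels of 2.82, 1.88 and 2.28 with tumors, 3.15, 2.60 and 2.33 without tumors, and 2.00, 2.06 and 2.00 in DMH mucosa. Every array except array 2 with tumors lay above the DMH arrays, whose spread was small. The window before its start lies at chr4:141300971-141301220 on the plus strand. The change was 0.49 ± 0.26 for all butyrate arrays (adjusted p = 0.234), 0.31 ± 0.28 with tumors (adjusted p = 0.49) and 0.67 ± 0.28 without tumors (adjusted p = 0.0999). It was thus not called against DMH. Relative to the epithelial markers its change was 1.26 for all butyrate arrays (limma adjusted p = 0.014), beside a median of 0.85 over all features under the same scaling. That scaling was chosen after seeing the data and shifts every feature alike, and the share of features called under it is not given here.

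Among the 3 ligands, 1 was called between the butyrate groups. Efnb2, the transmembrane ligand of EphB receptors that also marks arterial endothelium, was lower with tumors. The brighter probe had levels of 0.41, 1.22 and 1.09 with tumors, 1.92, 1.87 and 1.66 without tumors, and 1.48, 1.41 and 1.39 in DMH mucosa. DMH arrays lay between the butyrate groups, with no overlap among the 3 groups. Linear signals were 1.33 to 2.33 times the 75th percentile with tumors, 3.15 to 3.77 without tumors and 2.62 to 2.79 in DMH mucosa. For the arrays with against those without tumors the log2 change was -0.91 ± 0.22 (limma, 3 against 3 arrays, adjusted p = 0.0365), a fold of 0.533. Against DMH, which both groups share, the changes were -0.52 ± 0.22 with tumors (adjusted p = 0.158) and 0.39 ± 0.22 without tumors (adjusted p = 0.209), neither of them called, and that of all 6 arrays was -0.07 ± 0.32 (adjusted p = 0.904).

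The dimmer probe of Efnb2 did not separate the groups as clearly. Its levels were -4.16, -2.53 and -2.91 with tumors, -1.71, -2.62 and -2.81 without tumors, and -2.36, -2.27 and -2.35 in DMH mucosa. Array 2 with tumors lay among the arrays without tumors, and 2 of those lay below the DMH arrays. The change with against without tumors was -0.82 ± 0.43 on this probe (adjusted p = 0.213), of the same sign and not called. The 9 endothelial genes with values summed to 6.91 to 8.57 times the 75th percentile with tumors, 8.40 to 14.97 without tumors and 7.47 to 8.02 in DMH mucosa. Of these 9, 1 was called lower with tumors than without, the sialomucin gene Emcn (-0.92, limma adjusted p = 0.041), beside 6.56% of all features. The median change of the 9 was -0.53 against 0.01 over all features. The part of endothelium in the change of Efnb2 was not tested.

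Slide 1 holds both butyrate groups, and within it array 1 with tumors stood against the 3 arrays without tumors. With slide as a fixed block, Efnb2 had a change of -1.40 (adjusted p = 0.0145), which is the value within slide 1. Without array 1 with tumors the change was -0.66 and still called (adjusted p = 0.0123). Leaving out array 3 with tumors ended the call (adjusted p = 0.0841), as did leaving out array 1, 2 or 3 of the group without tumors (adjusted p = 0.087, 0.0912 and 0.0608), DMH array 1, 2 or 3 (adjusted p = 0.0574, 0.0691 and 0.069), or taking the mean of both probes (-0.86, adjusted p = 0.101). It also ended with quantile scaling (-0.78, adjusted p = 0.0616), no scaling (-0.44, adjusted p = 0.917), no filter on dim probes (adjusted p = 0.0673), DMH arrays 2 and 3 averaged (adjusted p = 0.0682) and a fit of the butyrate groups alone (adjusted p = 0.113).

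Efnb1, on the X chromosome (window before its start at chrX:99135811-99136060, plus strand), encodes the ephrin that meets EphB2 and EphB3 along the crypt. It had levels of 4.11, 2.98 and 2.36 with tumors, 4.64, 3.63 and 3.79 without tumors, and 3.67, 3.499 and 3.45 in DMH mucosa. Its butyrate arrays spread over more than the whole DMH range in both directions, and the highest array of each butyrate group was array 1. All 4 changes missed the threshold, with 0.04 ± 0.44 for all butyrate arrays (adjusted p = 0.956) and -0.87 ± 0.44 with against without tumors (adjusted p = 0.192). Without array 1 with tumors, that last change was -1.34 and was called (adjusted p = 0.0204).

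Efna1 encodes a ligand anchored in the membrane by lipid, and its receptors include EphA2. Levels were 0.36, 1.41 and 1.37 with tumors, 1.98, 1.87 and 1.58 without tumors, and 1.86, 1.66 and 1.56 in DMH mucosa. All arrays with tumors lay below all other arrays, and those without tumors overlapped the DMH arrays. The 2 windows before its starts lie at chr3:89279646-89279895 and chr3:89280952-89281201 on the minus strand. The change was -0.76 ± 0.29 with against without tumors (adjusted p = 0.104), -0.65 ± 0.29 with tumors against DMH (adjusted p = 0.173) and 0.12 ± 0.29 without tumors against DMH (adjusted p = 0.778). Array 1 with tumors was the lowest, and without it the first of these was -0.42 (adjusted p = 0.0884) and the second -0.30 (adjusted p = 0.263). With slide as a fixed block the first was -1.45 and called (adjusted p = 0.0168), a value that sets array 1 alone against the 3 arrays without tumors.

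**Figure D3:**
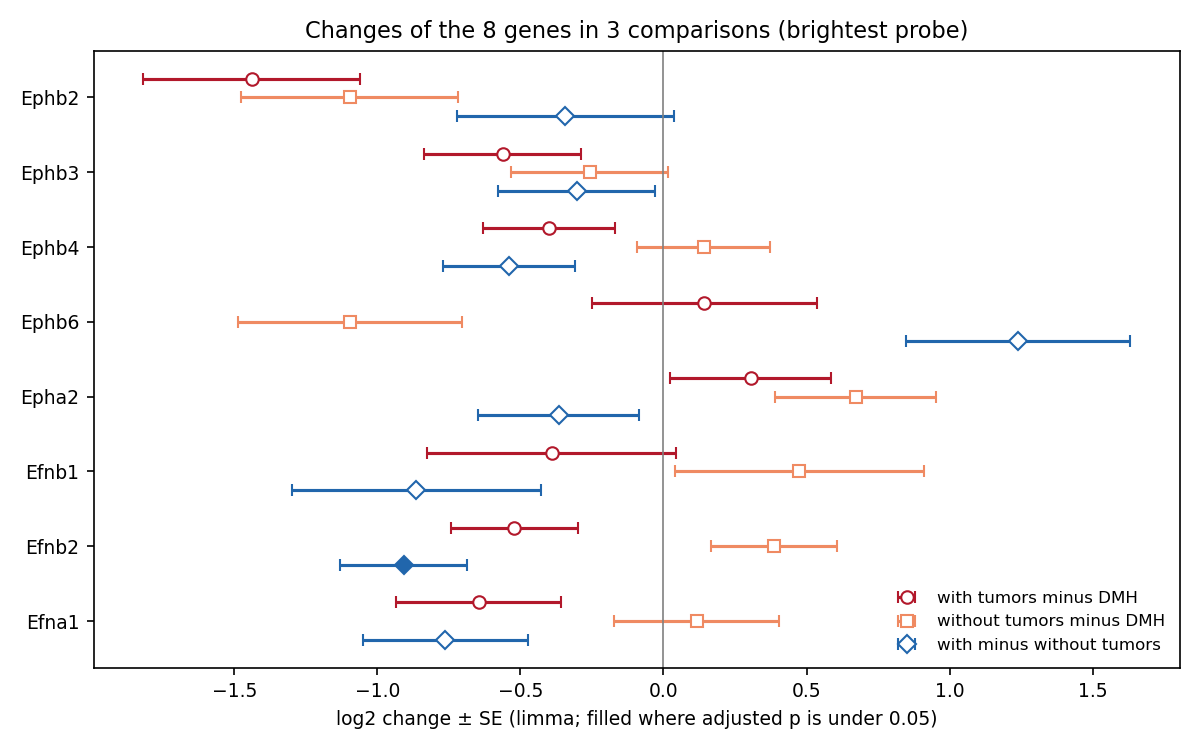
Log2 change and SE (limma) of the 8 genes for butyrate with tumors minus DMH, butyrate without tumors minus DMH and butyrate with minus without tumors, on the brightest probe of each gene. Filled symbols are called at an adjusted p under 0.05. Efnb2 with minus without tumors is the one filled symbol, and Ephb2 lies furthest to the left in the comparison with tumors minus DMH.

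Counted over the 8 genes, groups without overlap were found for 4 with tumors against DMH (Ephb2, Ephb3, Efnb2 and Efna1, all lower), beside 42.6% of all features, with 19.5% lower. For butyrate without tumors against DMH there were 4 (Epha2 and Efnb2 higher, Ephb2 and Ephb6 lower), beside 60% of all features, with 32.8% higher and 27.2% lower. Between the butyrate groups there were 3 (Ephb6 higher, Efnb2 and Efna1 lower), beside 33.4% of all features, with 16.8% higher and 16.6% lower. In either direction these counts were near those shares, and 4 of 8 lower with tumors against DMH compares with 19.5%. The median change of the 8 genes was -0.20 for all butyrate arrays (0.08 over all features), -0.46 with tumors against DMH (0.08), 0.13 without tumors against DMH (0.08) and -0.45 with against without tumors (0.01).

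Because a level on 1 array rests on the scaling of that array, receptors were also set against their ligands within each array. The differences are relative to the mean of the same difference in DMH mucosa and use the brightest probe of each gene. Ephb2 minus Efnb1 was -2.91, -0.35 and 0.11 with tumors, -2.63, -1.14 and -0.94 without tumors, and -0.04, -0.01 and 0.04 in DMH mucosa. The difference lay below those of the DMH arrays on 2 of 3 arrays with tumors and on all 3 without tumors, most so on array 1 of either group. Ephb3 minus Efnb2 was -0.03, -0.16 and 0.07 with tumors, -1.23, -0.48 and -0.22 without tumors, and 0.12, -0.08 and -0.04 in DMH mucosa. On the arrays with tumors receptor and ligand were lower by similar amounts, whereas the difference on the arrays without tumors lay below that on every DMH array. This rests on the brighter probe of Efnb2. Its dimmer probe had levels of -1.71, -2.62 and -2.81 without tumors and -2.36, -2.27 and -2.35 in DMH mucosa. On arrays 2 and 3 without tumors that probe lay below the DMH arrays, and with it the pattern did not hold there.

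EphB4 and EphA2 were set against their ligands in the same way. Ephb4 minus Efnb2 was 0.26, 0.21 and -0.11 with tumors, -0.67, -0.26 and 0.19 without tumors, and -0.02, -0.01 and 0.03 in DMH mucosa. Epha2 minus Efna1 was 2.13, 0.15 and 0.58 with tumors, 0.84, 0.40 and 0.43 without tumors, and -0.19, 0.07 and 0.12 in DMH mucosa. The receptor EphA2 thus stood higher against its ligand on all 6 butyrate arrays than on any DMH array, while the pair of Ephb4 and Efnb2 showed both signs within each butyrate group. These differences were not tested.

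**Figure D4:**
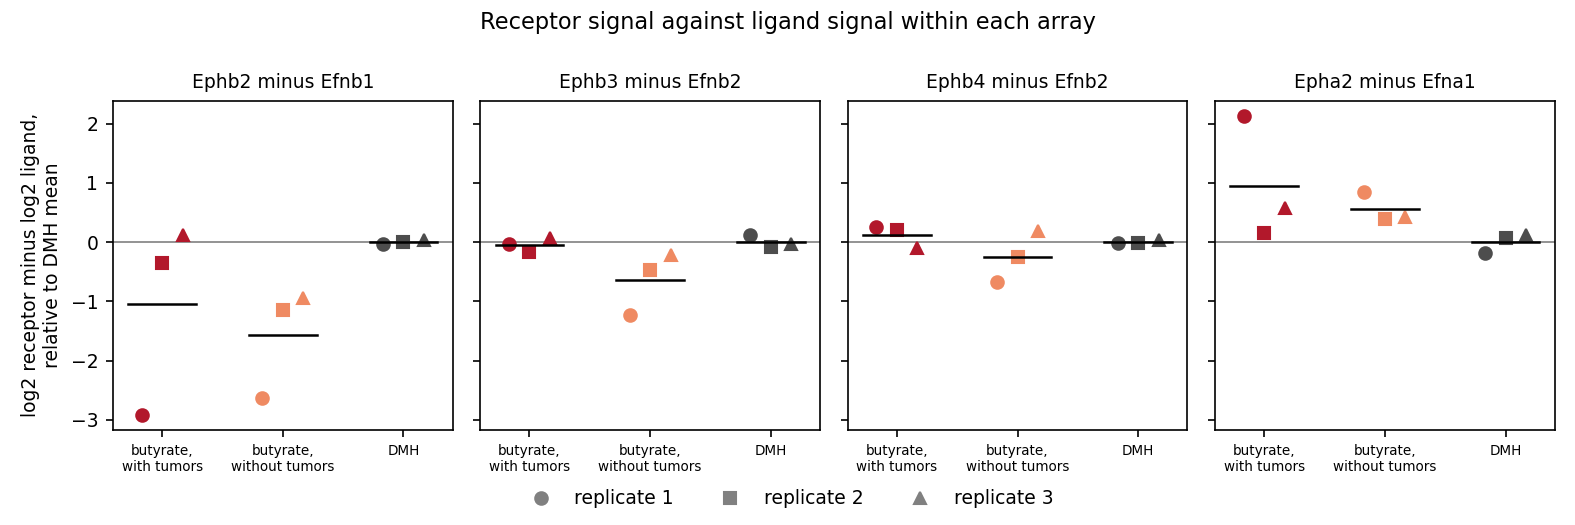
Log2 level of a receptor minus that of its ligand on the same array, relative to the DMH mean, for 4 pairs, on the brightest probe of each gene. Points are arrays and bars group means, with butyrate with tumors, butyrate without tumors and DMH from left to right. Ephb2 minus Efnb1 is below the DMH points on 5 of 6 butyrate arrays, and Epha2 minus Efna1 is above them on 6 of 6.

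Among the other members of the family, 4 of 9 receptors (Epha1, Epha4, Epha7 and Ephb1) and 3 of 5 ephrins (Efna4, Efna5 and Efnb3) passed the filter. Neither list had a called gene for all butyrate arrays against DMH (limma; unadjusted p under 0.05 for 1 receptor and 2 ephrins) or with tumors against DMH (0 receptors and 1 ephrin). In mice without tumors against DMH, 3 of these 7 were called higher, beside 16.6% of all features. Epha4, a receptor of both ephrin classes, rose by 0.74 ± 0.20 (adjusted p = 0.025) on its brighter probe. Its dimmer probe, well above background on all 9 arrays, was not higher. It varied from -2.98 to -1.22 on the same 3 arrays without tumors and averaged -1.99 ± 0.90 there, against -1.98 ± 0.17 in DMH mucosa (SD, n = 3 each). Efnb3, a B-type ligand best known in neurons, rose by 0.63 ± 0.17 (adjusted p = 0.0291) and was lower with than without tumors (-0.64 ± 0.17, adjusted p = 0.0462). Efna5, an A-type ligand known from axon guidance, rose by 1.71 ± 0.53 (adjusted p = 0.0408). The dimmer probe of Efna5, which carries another RefSeq accession and was well above background on 8 of 9 arrays, was not higher, averaging -4.48 ± 0.03 without tumors and -3.93 ± 0.90 in DMH mucosa (SD, n = 3 each).

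In levels, Efnb3 had -3.14, -3.18 and -2.81 with tumors, -2.27, -2.29 and -2.63 without tumors, and -2.93, -3.02 and -3.13 in DMH mucosa. Only the arrays without tumors lay apart. Efna4, an A-type ligand, had levels of -2.30, -1.02 and -0.30 with tumors, -1.73, -1.54 and -1.25 without tumors, and -0.15, -0.26 and -0.22 in DMH mucosa. All 6 butyrate arrays lay below the DMH arrays, and the change was -1.14 ± 0.37 for all butyrate arrays (adjusted p = 0.0769), not called. Neural tissue is known to express Epha4, Efna5 and Efnb3. Markers of enteric neurons and glia summed to 4.34 to 14.6 times the 75th percentile with tumors, 7.33 to 14.0 without tumors and 3.43 to 4.34 in DMH mucosa, with up to 1, 0 and 2 of the 10 not well above background on an array. Of these 10 markers 5 were called higher without tumors against DMH, beside 16.6% of all features, among them the neuropeptide gene Vip (1.25 ± 0.29, limma adjusted p = 0.016). All 10 changes were positive there, with a median of 1.46 against 0.08 over all features. For all butyrate arrays against DMH 4 of the 10 were called higher, beside 5.85% of all features. The part of enteric neurons and glia in the changes of Epha4, Efna5 and Efnb3 was not tested.

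**Figure D5:**
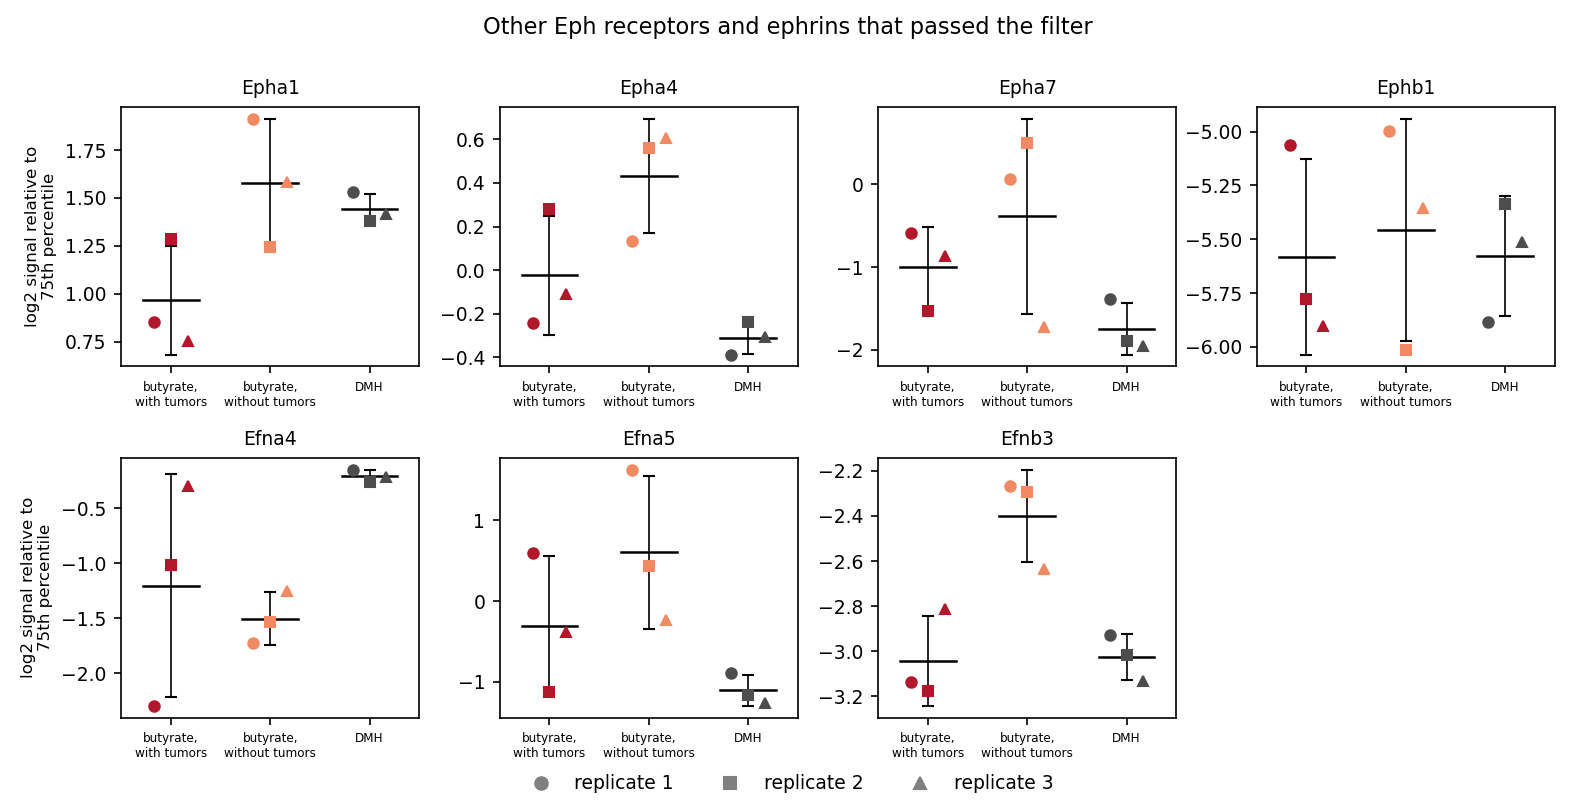
Levels of the 7 further Eph receptors and ephrins that passed the filter (log2 signal relative to the 75th percentile of the array, brightest probe, a scale of its own per panel). Points are arrays, bars the mean and SD of 3 arrays, with butyrate with tumors, butyrate without tumors and DMH from left to right. Efnb3 is higher on the arrays without tumors than on all others, and Efna4 is lower on all butyrate arrays than on the DMH arrays.

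Of 31 signalling partners, genes that carry the signal inside the cell, 28 were measured. None was called for all butyrate arrays against DMH (limma; 7 with an unadjusted p under 0.05) or with tumors against DMH (4). In the group without tumors against DMH 6 were called higher and 3 lower, near the 16.6% and 13.8% of all features. The median was 0.29 against 0.08 over all features. Rasa1, the Ras GTPase activator that binds activated EphB2, rose by 0.83 ± 0.15 (adjusted p = 0.00742). The GTPase gene Rac1, which drives membrane ruffling, rose by 0.73 ± 0.15 (adjusted p = 0.0101), and Src, a kinase recruited by Eph receptors, by 0.67 ± 0.16 (adjusted p = 0.0188). Cdc42, the GTPase behind filopodia, fell by 1.21 ± 0.23 on the log2 scale (adjusted p = 0.00782). Between the butyrate groups 5 of the 28 were called lower and none higher, beside 6.56% and 6.99% of all features, with a median of -0.19 against 0.01. The 5 included Src (-0.80 ± 0.16, adjusted p = 0.023) and Rac1 (-0.66 ± 0.15, adjusted p = 0.03).

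EphB2 and EphB3 are themselves Wnt targets, and other genes of that program and of the crypt base were counted beside them. Of 19 measured, none was called for all butyrate arrays against DMH (limma; 3 with an unadjusted p under 0.05; median -0.48 against 0.08 over all features) or with tumors against DMH (1; median -0.34). Without tumors against DMH 8 were called lower and none higher, beside 13.8% and 16.6% of all features, with a median of -0.97. The largest of the named falls was that of the matrix protease gene Mmp7 (-4.98 ± 0.85, adjusted p = 0.00572), followed by the Wnt target Sp5 (-3.91 ± 0.89, adjusted p = 0.0148). The genes of the Wnt effectors Tcf7 (-1.56 ± 0.37, adjusted p = 0.0161) and Lef1 (-1.42 ± 0.31, adjusted p = 0.013) fell too, and both were higher with than without tumors, by 2.14 and 2.02 (adjusted p = 0.016 and 0.0134). Lymphocytes also express Tcf7 and Lef1, and the lymphocyte sums given above were highest on arrays 1 and 3 with tumors; their part in these 2 changes was not tested. Of 10 genes of proliferating cells, which fill the lower crypt, 3 were called lower and 1 higher without tumors against DMH, beside 13.8% and 16.6% of all features. Their median change was -0.27 against 0.08 over all features. The signals of these 10 genes summed to 41.1 to 56.0 with tumors, 39.0 to 51.4 without tumors and 42.2 to 43.5 in DMH mucosa.

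Genes of the differentiated surface colonocytes, where ephrin-B1 and ephrin-B2 are known to be high, were counted in the same way. Of 11 measured, none was called for all butyrate arrays against DMH (limma; 4 with an unadjusted p under 0.05; median -0.04). With tumors against DMH 1 was called lower, the carbonic anhydrase gene Car1 (-1.90 ± 0.40, adjusted p = 0.0402, with a median of -0.45 for the list). In the group without tumors against DMH 2 were called higher and 2 lower (median 0.54), near the 16.6% and 13.8% of all features. Of the 11 changes there, 9 were positive. The 2 negative ones were those called lower, the adhesion gene Ceacam1 (-1.39 ± 0.19, adjusted p = 0.00268) and the keratin gene Krt20 (-0.81 ± 0.17, adjusted p = 0.0105). Between the butyrate groups 4 were called lower with tumors and 1 higher (median -0.90), beside 6.56% and 6.99% of all features. Those called lower included Car1 (-2.00 ± 0.40, adjusted p = 0.0225) and Cdhr5, a cadherin of the brush border (-1.51 ± 0.28, adjusted p = 0.0189).

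The genes whose profile over the 9 arrays was most like that of Ephb2, by the root mean square difference after each gene's own mean was subtracted, were Gfm1 (0.118), Ephx4 (0.148), Acad10 (0.16) and Cabcoco1 (0.164), of 15272 genes compared. Gfm1 encodes an elongation factor of mitochondrial protein synthesis. Its levels were -2.42, -1.12 and -1.38 with tumors, -1.72, -1.48 and -0.94 without tumors, and -0.26, -0.54 and -0.34 in DMH mucosa, so that it too was lowest on array 1 with tumors. Nearest to Ephb3 were Ppfia1 (0.102), Ppp2cb (0.116), Serf1 (0.13) and Zfp870 (0.131). Ppfia1 encodes a liprin scaffold of cell adhesions, and its levels were -1.78, -1.02 and -1.12 with tumors, -1.35, -0.93 and -0.66 without tumors, and -0.68, -0.83 and -0.69 in DMH mucosa. These are descriptions over 9 arrays that share slides and scan days.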

How the data were processed

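Total RNA of normal colonic mucosa was measured on 9 single-colour Agilent arrays (Cy3). Per the file headers, the deposited scanner values are intensity, background-subtracted and detrended by Feature Extraction 10.5.1.1 (also in the submitters' processing notes), with no scaling between arrays. The authors' deposited value table holds log2 values of 21829 probes, which equal the log2 scanner signal minus 1 constant per array (SD of the difference at most 0.0091). What that constant is stays unknown.

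Here control and outlier spots were left out, the 75th percentile was subtracted, and probes well above background on at least 3 of 9 arrays with 2 values per group were kept (28521). RefSeq accessions named 26933 of 41174 probes. The brightest probe per gene gave 21964 features. The 6 butyrate arrays were tested against DMH in a fit of 2 groups, the other comparisons in 1 fit of 3 groups (limma 3.58.1 in R 4.3.3, statmod 1.5.0, Benjamini-Hochberg, 2-sided). The fit was tested on simulated data. Python 3.11.15 and pandas 2.3.3 were used. The genes and lists were chosen with earlier results of these data known. By rule, the text names all 8 genes and up to 4 members of each pathway list by smallest p. Epcam, Krt19, Cdx2, Vil1, Cldn7, Emcn and Vip, cell type markers, were named after their values were seen.

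Replicate numbers are shared by the groups, but the deviations of same-numbered arrays correlated at -0.01 to 0.26, not above 0.1 in every pair, so the numbers were not taken to pair samples. Alternatives were other scalings, background correction, filters, probe rules, priors, weights, blocks and arrays left out. Protein, probe and genome sequences were not used here.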

Additional observations from a re-analysis of the deposited data

Results flagged for a closer look

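Efnb2 differed between the 2 butyrate groups. With against without tumors its log2 change was -0.91 (limma, adjusted p = 0.0365), and against the DMH mean all 3 arrays with tumors moved down and all 3 without tumors moved up, so that the same difference of -0.91 was also picked out by direction. Its dimmer probe had a change of -0.82 that was not called (adjusted p = 0.213). No single array of the 6 butyrate arrays stood apart from the others by Dixon's test for any of the 8 genes.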

How the results depend on the processing

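Of 824 log2 changes of the 8 genes under alternatives, 715 kept direction and side of the threshold, 27 lost the call, 42 gained one and 40 changed sign. Ephb2 stayed below DMH under every alternative, from -2.11 to -0.50 for all butyrate arrays, -2.05 to -0.66 with tumors and -2.18 to -0.34 without tumors. The number of the 8 genes called for all butyrate arrays against DMH (1) was 0 with no scaling, normexp, no filter on dim probes, slide as a random block (Ephb2 adjusted p = 0.189) and DMH arrays 2 and 3 averaged (0.161), 2 relative to the epithelial markers and 3 with array weights. With tumors against DMH (0) it was 2 with the authors' values and 1 with probes well above background on all 9 arrays, the mean of the probes, a trend and robust prior, array weights, slide 1 left out, or relative to the epithelial markers. Without tumors against DMH (0) it was 1 with the authors' values, the filter on all 9 arrays, the mean of the probes, and a trend and robust prior, 3 with only the groups compared, and 4 with array weights or relative to the epithelial markers. With against without tumors (1) it was 0 with quantile scaling, no scaling, no filter, the mean of the probes, only the groups compared, or DMH arrays averaged, 2 with slide as a fixed or random block, and 3 with the authors' values or array weights. With the replicate block these 4 counts were 0, 0, 2 and 0. Leaving out 1 array gave 0 to 1, 0 to 1, 0 to 4 (4 without array 1 with tumors) and 0 to 3. The number of all features called moved with the setting too. For all butyrate arrays against DMH it was 2020 of 21964 in the report, 1802 with quantile scaling and 35 with no scaling. The counts of the 8 genes under alternatives are given without such shares, so they are not results about these genes in particular.

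Signs that changed were all of changes not called in the report. For all butyrate arrays, Epha2 (-0.36) and Efnb1 (-0.80) turned with no scaling, Efnb2 with normexp (0.054), Ephb4 (0.11), Efnb2 (0.22) and Efna1 (0.012) with array weights, Efnb1 with slide as a random block (-0.10), Ephb6 (0.43) and Efnb1 (-0.87) without slide 1, and Ephb3 (0.36), Ephb4 (0.64), Ephb6 (0.29), Efnb2 (0.70) and Efna1 (0.50) relative to the epithelial markers. Leaving out arrays turned Efnb1 (-0.17 to 0.29), and Efnb2 (-0.18 to 0.12). With tumors against DMH, Ephb6 (-0.47) and Epha2 (-0.31) turned with no scaling, Ephb6 with the authors' values (-0.032) and on leaving out arrays (-0.30 to 0.43), Efnb1 likewise (-0.87 to 0.0059), and Ephb3 (0.22), Ephb4 (0.38), Efnb1 (0.39), Efnb2 (0.26) and Efna1 (0.13) relative to the epithelial markers. Without tumors against DMH, Ephb4 (-0.94), Epha2 (-0.41), Efnb1 (-0.61), Efnb2 (-0.69) and Efna1 (-0.96) turned with no scaling, and Ephb3 (0.50) relative to the epithelial markers. With against without tumors, Ephb2 (0.13), Ephb3 (0.16) and Epha2 (0.10) turned with no scaling, Epha2 (0.13) and Efnb1 (0.094) with slide as a fixed block, and Ephb2 on leaving out arrays (-0.61 to 0.11). The cause was not tested. No scaling moved the median of all features to -0.76, -0.53, -1.004 and 0.48 in the 4 comparisons, and the epithelial scaling, chosen after seeing the data, to 0.85, 0.86, 0.84 and 0.03. The authors' values moved it to 0.08, -0.11, 0.25 and -0.36.

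Of 9 arrays 3 correlated best with their own replicate number. Slide as a fixed block was fitted for with against without tumors alone, and the fit without slide 1 was not run where it would leave no array without tumors. For all butyrate arrays against DMH, that fit kept only arrays 2 and 3 with tumors.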
